A study of Mus with 4 samples.

Results

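Stip1 and 9 heat shock chaperone genes were examined for TBX3 binding at their promoters in mouse primary hepatocytes. The 10 genes were listed by name, out of 21887 protein-coding genes of the mouse annotation. They were chosen by a value of the same data, the strong summit at 1 end of Stip1, to ask whether promoters of other chaperone genes carry a like signal. The height and rank of Stip1 are therefore given as a description. The other 9 genes, Hsp90aa1, Hsp90ab1, Hspa8, Hspa5, Hsph1, Dnaja1, Dnajb1, Hspd1 and Hspe1, were listed for their function.

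The hepatocytes carried the construct pT2-SVNeo-EF1-eGFP-P2A-Tbx3-HA, which expresses TBX3 with an HA tag beside green fluorescent protein. Per its name and the methods of the study, the construct is a Sleeping Beauty transposon with an EF1α promoter, so the tagged protein was overexpressed. Chromatin was precipitated with an anti-HA antibody (2 TBX3 ChIP libraries) or sequenced without precipitation (2 Input libraries). Both groups share the construct, so cells without tagged TBX3 are not part of the comparison. The age of the animals is not given in the sources used here. A ChIP track holds no expression values, so the labelled cell type was not checked against its markers.

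Newly made and stress-damaged proteins are folded with the help of molecular chaperones, many of which are named heat shock proteins because heat raises their synthesis. HSP70 proteins bind unfolded stretches of a client, J-domain proteins deliver the client and speed ATP hydrolysis, and exchange factors release it. STIP1, also called HOP, binds HSP70 and HSP90 at once and passes clients from the former to the latter. Hepatocytes secrete much protein and depend on the chaperones of the endoplasmic reticulum. TBX3 is a T-box transcription factor known mainly as a repressor.

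Each value of the deposited track, called the score here, expresses as the −log10 of a p-value how far the ChIP reads at a base exceed an expected level. As inferred here, that level is the higher of a fixed genome-wide value and the level of Input near the base. For each gene the highest score up to 1 kb from its ends was taken as the promoter score, and the highest in the 10 kb beyond its ends as the outside score. The gene table used here gives no strand, so ends are called lower or higher by their coordinates on GRCm38. A promoter score is the higher value of both ends and can thus come from the end at which a gene stops. The track gives 1 value per base and none per library, and which of the 4 libraries entered it is not stated. No score thus carries a replicate error, and differences between genes were not tested. From each score a whole number of reads was worked back with a Poisson distribution. This gave a level at 99.9997% of bases, with a genome-wide expected level of 2.43 reads. Expected levels do not go below this value, so an expected level of 2.43 is not a local count of Input reads. At that level, 8 reads over a base score 3.02, 11 reads score 5.01 and 14 reads score 7.31.

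Stip1 (gene 20867, chromosome 19 from 7020696 to 7040026) had the highest score of the 10 genes, 27.52. Its summit lies at 7040176, outside the gene and 150 bp from the higher-coordinate end. Stip1 is known to be transcribed towards lower coordinates, so this is the end at which the gene starts. At the summit 34 ChIP reads were inferred against the genome-wide level of 2.43, which is 14.0 times the expected level. A region was called there as a run of scores of at least 5 that is at least 200 bp long. It spans 7039896 to 7040411, or 516 bp, with 131 bases inside the gene and 385 outside. The region thus covers the very end of the gene and more of the sequence beyond it.

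The signal at Stip1 rose and fell within the region and its near surroundings. At 200 bp inside the gene the score was 0.36, from 2 reads. It was 9.85 at 100 bp inside and 13.56 at the end itself, where 21 reads were inferred. Outside the gene the score was 18.62 at 100 bp, 18.32 at 200 bp and 9.66 at 300 bp. Beyond this it was 0.96 at 500 bp outside and 0.04 at 600 bp, where 0 reads were inferred. The stretch with a score of at least 10 was 367 bp long and that with a score of at least 20 was 85 bp long. Within the region the inferred pileup changed 125 times along the sequence, in 96% of cases by 1 read and never by more than 2 reads. Where more than 1 read number fits a score, the inference favours the smallest change. The step sizes can thus partly follow from the method. Whether duplicate reads had been removed before the track was made is not given in the sources used here, so these steps do not show how many reads shared an end.

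**Figure D1:**
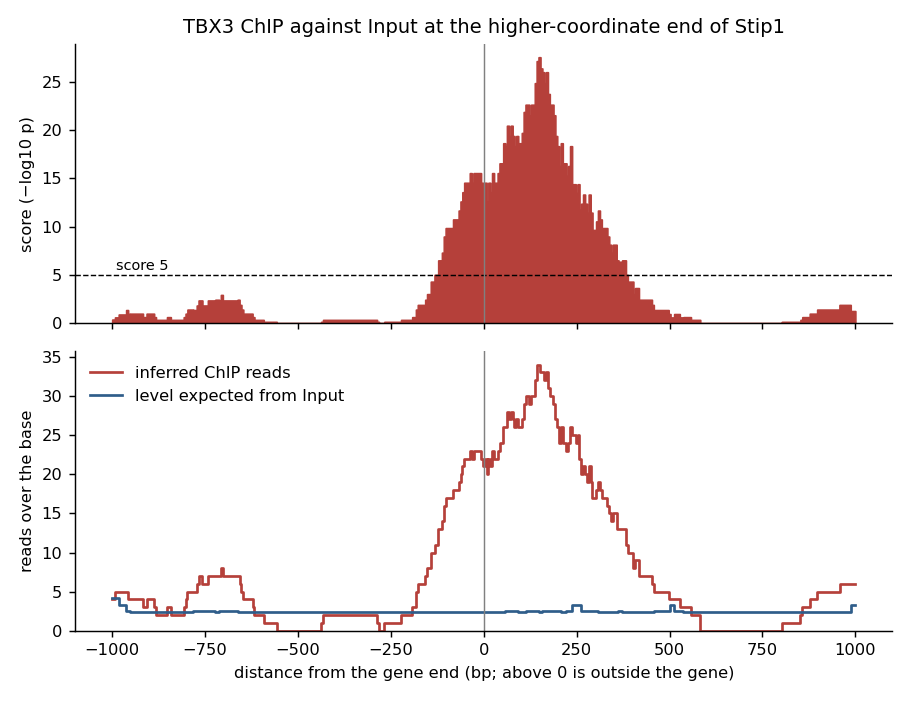
Score (top, −log10 p) and reads over the base (bottom: inferred ChIP reads in red, level expected from Input in blue) against the distance from the higher-coordinate end of Stip1 in bp, drawn every 5 bp. Values above 0 on the horizontal axis are outside the gene. The score peaks at 27.52, 150 bp outside, and under the summit the expected level stays near its genome-wide value of 2.43 reads.

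The remaining bases of Stip1 had little signal. The lower-coordinate end scored 1.42, from 5 reads. The highest score elsewhere in the gene was 5.75, from 12 reads at 7031172. The mean score over the gene outside the region was 0.52. In the 10 kb beyond the higher end the highest score outside the region was 4.31, and in the 10 kb below the lower end it was 3.65. Only the higher end of Stip1 thus had a called region, and no other gene of the annotation has an end within 1 kb of its summit.

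Among the 125 regions called across the main chromosomes, the Stip1 region ranked 12 by summit score and 16 by length. The medians of all regions were a summit score of 12.6 and a length of 315 bp. Of the protein-coding genes, 10 scored as high as Stip1, Stip1 included, which is 0.0457% (95% Wilson interval 0.0248 to 0.0841%, which covers counting only). For comparison, E2f7 and E2f8, the genes on which the study centred, had promoter scores of 22.79 and 15.53. For E2f8 the paper describes binding at an enhancer region. Chromosome 19 had a depth of 1.19 times the autosome median. After a rise of the expected level to this depth Stip1 scored 25.07. At the depth of their own chromosomes E2f7 and E2f8 scored 19.74 and 15.53. With pileup and expected level divided by 2, as if each read pair were counted once, Stip1 scored 14.77. Whether the reads were paired is not stated in the sources used here. All of the Stip1 values here were part of the choice of Stip1 or follow from it.

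The other 9 genes scored from 1.90 to 6.51. Since Stip1 was chosen by its score, counts are given without it. A promoter score of at least 5 was found at 1 of 9 genes, Dnajb1, beside 3.60% of all protein-coding genes. A score of at least 3 was found at 6 of 9 genes, or at 5 of 8 with Hspd1 and Hspe1, which share a summit, counted once, beside 29.1% of all protein-coding genes. The median promoter score of the 9 genes was 3.02, beside 2.44 over all protein-coding genes. A called region at a gene end was found at 0 of 9 genes, beside 0.311% of all protein-coding genes. With the 10 kb outside included the count was again 0, beside 0.525%. None of the other 9 genes came near the Stip1 score, and their summits were of 6 to 13 reads.

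**Figure D2:**
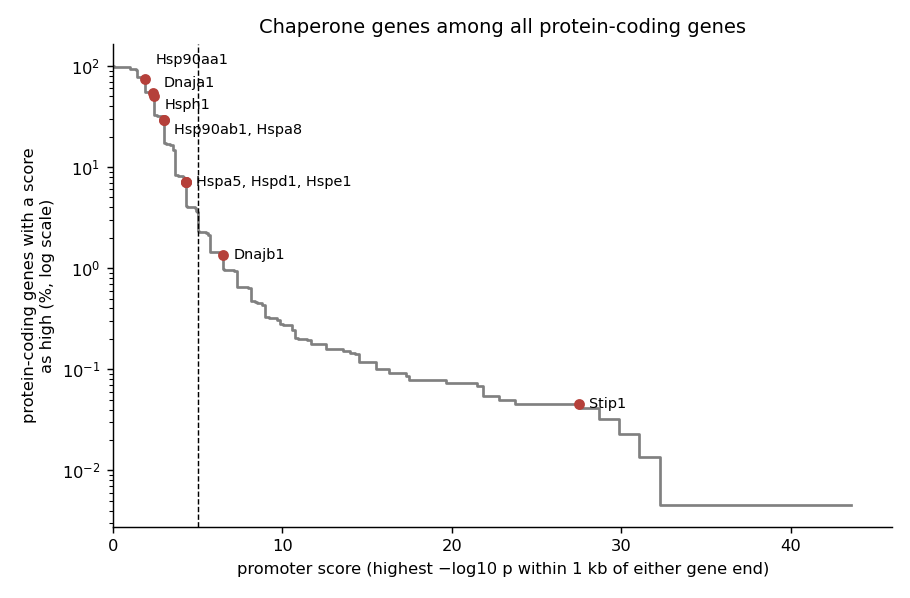
Share of the 21887 protein-coding genes with a promoter score as high (vertical axis, %, log scale) against the promoter score (horizontal axis, −log10 p). The grey line is all genes, the red points are the 10 chaperone genes and the dashed line marks a score of 5. Stip1 stands at 27.52 and the other 9 genes lie between 1.90 and 6.51.

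The cytosolic HSP90 proteins are the ATPases to which STIP1 passes clients. Hsp90aa1 (gene 15519, chromosome 12 from 110691036 to 110696395) encodes the stress-inducible form. It scored 1.90 at its lower end, 681 bp outside, from 6 reads, and 1.42 at its higher end, from 5 reads. Of protein-coding genes, 74.5% scored as high, and Hsp90aa1 was the lowest of the 10 genes in this window. Within 2 kb of its ends it scored 3.65, above Hsph1 and Dnaja1, so its place depends on the window. Its outside score was 3.65, at 8386 bp beyond the higher end.

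Hsp90ab1 (gene 15516, chromosome 17 from 45567778 to 45573261) encodes the constitutive form. Both ends scored 3.02, from 8 reads at 38 bp outside the lower end and 8 reads at 145 bp outside the higher end. A score as high was found at 29.0% of protein-coding genes. The lower summit is 69 bp from an end of the neighbouring gene Slc35b2 and cannot be given to either gene alone. Neither of the cytosolic HSP90 genes thus carried a summit like that of their partner Stip1.

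The HSP70 proteins are the other partner of STIP1. Hspa8 (gene 15481, chromosome 9 from 40801276 to 40805202) encodes the constitutive cytosolic form. It scored 3.02 at both ends, from 8 reads at 761 bp inside the lower end and 8 reads at 147 bp inside the higher end. Within 500 bp of the lower end the highest score was only 1.00. Hspa8 had an outside score of 3.65, which 46.6% of protein-coding genes reached.

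Hspa5 (gene 14828, chromosome 2 from 34772090 to 34776529) encodes BiP, the HSP70 of the endoplasmic reticulum. Its lower end scored 4.31, 91 bp outside the gene, where 10 reads were inferred, or 4.11 times the expected level. Its higher end scored 2.44, from 7 reads. Of protein-coding genes, 1575 or 7.20% had a promoter score as high. Hspa5 thus came next to Stip1 and Dnajb1 among genes with a summit close to an end, 1 read short of a score of 5.

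Hsph1 (gene 15505, chromosome 5 from 149616843 to 149636498) encodes HSP110, an exchange factor of HSP70. Its higher end scored 2.44, 82 bp outside the gene, from 7 reads, and its lower end scored 1.42, from 5 reads. This promoter score equals the median of all protein-coding genes, of which 50.5% scored as high.

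The J-domain proteins deliver clients to HSP70. Dnajb1 (gene 81489, chromosome 8 from 83608175 to 83612653) encodes the stress-inducible HSP40. Its lower end scored 6.51 at 83608115, 60 bp outside the gene. There 13 reads were inferred, or 5.34 times the expected level, so the pileup was less than that of Stip1 with its 34 reads. The run of scores of at least 5 was 68 bp long, under the 200 bp of a called region. The higher end scored 2.13, so only the lower end reached a score of 5.

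Dnajb1 was matched or exceeded by 296 protein-coding genes, itself included, or 1.35% (95% Wilson interval 1.21 to 1.51%, counting only). The summit is also 265 bp from an end of the long noncoding RNA gene Gm42029. With pileup and expected level divided by 2 the score was 3.56, below 5, a setting that lowered the score of every list gene. Chromosome 8 had a depth of 0.959 times the autosome median.

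Dnaja1 (gene 15502, chromosome 4 from 40722468 to 40734965) encodes another cytosolic HSP40. It scored 2.37 at 842 bp outside its lower end, from 7 reads, and 1.00 at its higher end, from 4 reads. The summit is 41 bp from an end of Aptx, a DNA repair gene. Within 500 bp of the lower end of Dnaja1 the highest score was 1.00. Chromosome 4 had the lowest depth of the autosomes, 0.700 times their median, and the part of depth in this low score was not tested.

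Hspd1 (gene 15510, chromosome 1 from 55077833 to 55088243) and Hspe1 (gene 15528, chromosome 1 from 55088148 to 55091317) encode HSP60 and HSP10, which form the mitochondrial chaperonin. Both genes are known to be transcribed away from a shared promoter, and in the annotation their ends overlap by 96 bp. They shared a promoter score of 4.31, from 10 reads at 55089071. This position is 828 bp beyond the end of Hspd1 and 923 bp inside Hspe1. Within 500 bp of the overlapping ends the highest score was 1.42, so the shared promoter itself held no summit. The 2 genes rest on the same bases here and count as 1 observation.

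**Figure D3:**
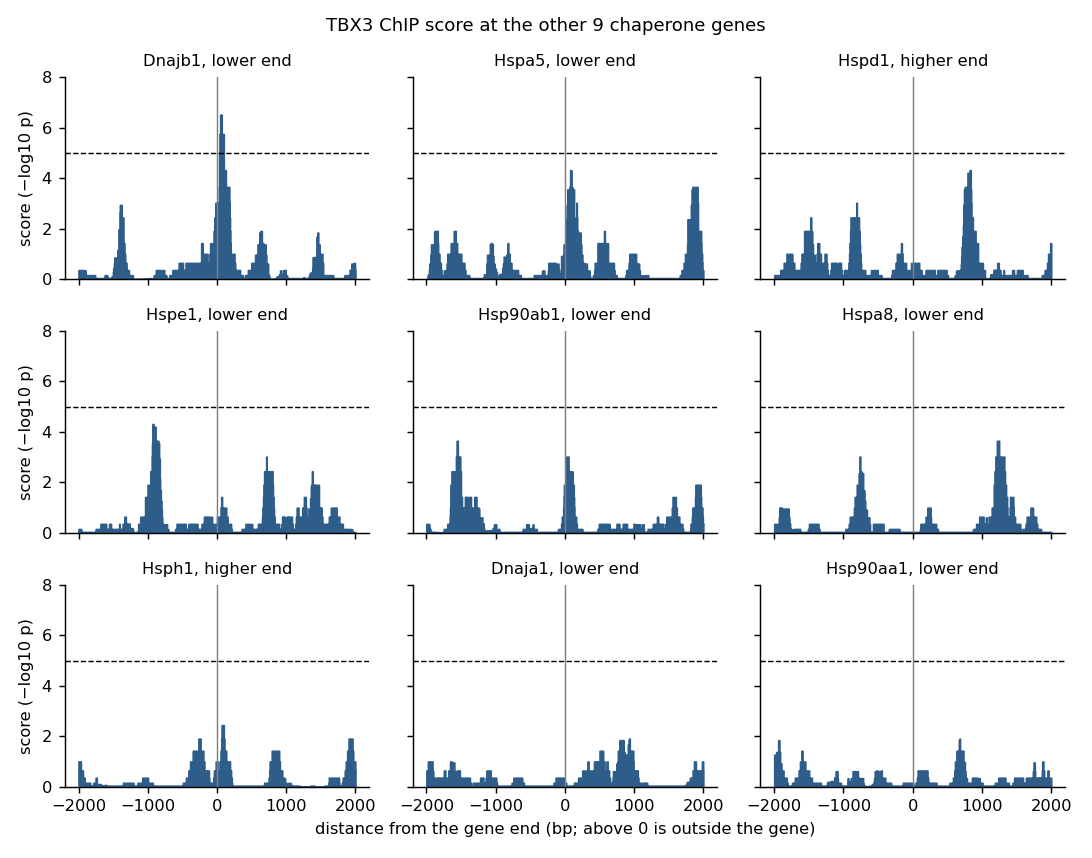
Score (vertical axes, −log10 p) within 2 kb of 1 end of each of the other 9 genes, against the distance from that end in bp, drawn every 5 bp. Values above 0 are outside the gene, the end shown is the one with the higher score (the lower-coordinate end where both were equal) and the dashed line marks a score of 5. The line is crossed within 1 kb of the end by Dnajb1 alone, and the summit of Hspa5 at 4.31 is the next one close to an end.

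In the 10 kb outside the genes, 1 of the 9 genes other than Stip1 had a score of at least 5, or 11.1%, beside 10.3% of all protein-coding genes. This was again Dnajb1 with its summit near the end, and the share was close to that of all genes. The other 8 outside scores lay between 2.44 at Dnaja1 and 4.31 at Hspa5 and Hspd1. The median over all protein-coding genes was 3.55. In 4 genes the outside score was above the promoter score but below 5. They were Hsp90aa1 with 3.65, Hspa8 with 3.65, Hsph1 with 3.02 and Dnaja1 with 2.44. Such a score must lie more than 1 kb from the end, since the promoter score covers the first 1 kb.

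The highest score in a window uses a single base, so the mean over the bases within 250 bp of each end was also taken. At the higher end of Stip1 the mean was 19.3 inferred reads against 2.48 expected, a ratio of 7.80. These are the bases by which Stip1 was chosen. Over all 43774 ends of protein-coding genes, 2 had a ratio as high, the highest being 7.83. The lower end of Dnajb1 had a ratio of 2.65, and 0.343% of ends were as high. The lower end of Hspa5 had a ratio of 1.89, and 1.27% of ends were as high. Apart from Stip1, these were the highest ratios among the ends of the 10 genes.

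Next came the higher ends of Hsp90ab1 at 1.61, Hspa8 at 1.61 and Hsph1 at 1.40. Over all ends the median ratio was 0.541 and the 95th percentile 1.40. These 6 ends, that of Stip1 included, are the highest of the 20 and belong to different genes, so each opposite end is lower by selection. The opposite ends had ratios from 0.194 at Dnajb1 to 1.11 at Hsp90ab1. A ratio of at least 1 was found at 10 of the 18 ends of the genes other than Stip1, beside 16.1% of all ends, with the overlapping ends of Hspd1 and Hspe1 sharing most of their bases. The ends of Hsp90aa1 and Dnaja1 lay between 0.392 and 0.540, and those of Hspd1 and Hspe1 between 0.982 and 1.20. Along the whole gene the mean ratio lay between 0.494 at Dnaja1 and 0.909 at Hspe1, and the mean pileup was below the mean expected level on each of the 21 main chromosomes as well. The expected level is never below its genome-wide value, so a ratio below 1 does not show fewer ChIP reads than Input reads.

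**Figure D4:**
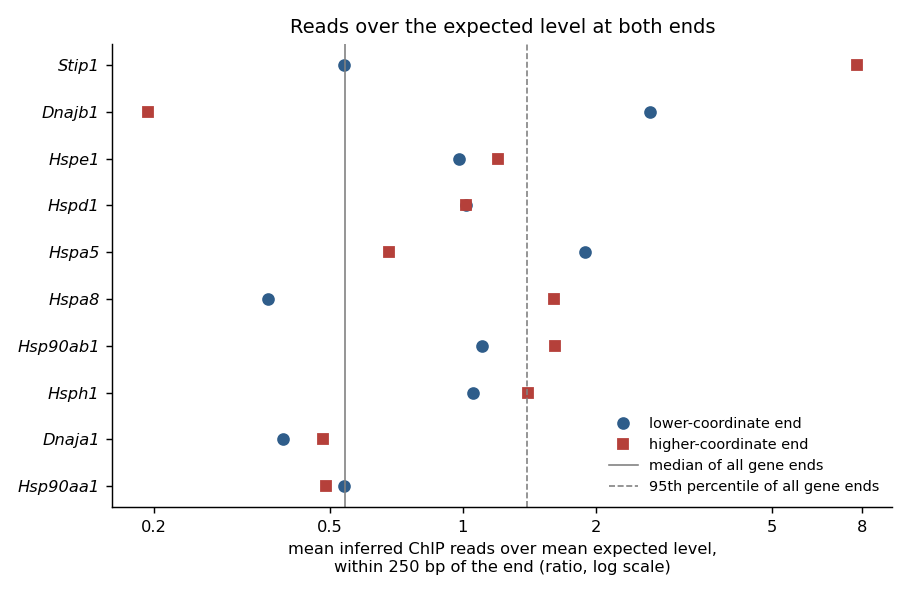
Mean inferred ChIP reads over the mean expected level within 250 bp of each gene end (horizontal axis, ratio, log scale) for the 10 genes, with lower-coordinate ends as blue circles and higher-coordinate ends as red squares. The solid grey line is the median of all 43774 gene ends, 0.541, and the dashed line their 95th percentile, 1.40. The higher end of Stip1 at 7.80 is far to the right of the other 19 ends.

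The question was widened to 9 lists with 145 genes of protein folding, the 10 genes included. A promoter score of at least 5 was found at 15 genes, or 10.3% (3.60% of all protein-coding genes), and without the 10 genes at 13 of 135, or 9.63%. A score of at least 3 was found at 56 genes, or 38.6%, and without the 10 genes at 49 of 135, or 36.3%, beside 29.1%. Genes that share a summit, such as Hspd1 and Hspe1 among the 56, are counted separately, in the lists and over all protein-coding genes. The median promoter score was 2.44, the same as over all protein-coding genes. Apart from Stip1, a called region at an end was found at 1 of 144 genes, Cct7, beside 0.311% of all protein-coding genes. The median is a single step of the score, that of 7 reads, so equal medians do not show that the distributions were alike.

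Apart from Stip1, the summits of the 15 genes were of 11 to 16 inferred reads. With pileup and expected level divided by 2, which lowered every list gene's score by unlike amounts, 2 genes scored at least 5. They were 1.38%, beside 0.457% of all protein-coding genes. These 2 were Stip1, chosen by its score, and Grpel1, so without Stip1 only Grpel1 is left. With the expected level raised to chromosome depth it was 12 genes, or 8.28%, beside 2.50%. Within 500 bp of the ends it was 13, or 8.97%, beside 2.56%. Stip1 is counted in each of these settings. Of the 15 genes, 8 had the summit within 1 kb of an end of another gene, in 5 cases a protein-coding one. How often this holds over all protein-coding genes was not counted, so the 8 are a description.

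Among the co-chaperones of HSP90, 3 of 22 genes scored at least 5 and 10 scored at least 3, with a median of 2.44. With Stip1 counted, these are 13.6% and 45.5%, beside 3.60% and 29.1% of all protein-coding genes. Besides Stip1, which was chosen by its score, the genes at 5 or more were Fkbp8 and Unc45a. Fkbp8, a membrane-bound immunophilin, scored 7.31, and Unc45a, a chaperone of myosin, scored 7.31. The Fkbp8 summit was 74 bp outside the lower end. The Unc45a summit was 873 bp outside and only 268 bp from an end of Rccd1.

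Among the co-chaperones and exchange factors of HSP70, 3 of 11 genes scored at least 5 and 7 scored at least 3, with a median of 3.02. These are 27.3% and 63.6% of the list, beside 3.60% and 29.1% of all protein-coding genes. Grpel1, the exchange factor of mitochondrial HSP70, had the highest list score after Stip1, 8.98. Its summit lay 129 bp outside the lower end, with 16 inferred reads or 6.57 times the expected level, and 202 bp from the long noncoding RNA gene 2210406O10Rik. St13, also called HIP, scored 5.75 at 211 bp outside its higher end, a summit that is 200 bp from an end of Xpnpep3. Hspbp1, named after its value was seen, scored 5.01.

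Of the 4 HSP90 genes, 1 or 25% scored at least 5, beside 3.60% of all protein-coding genes. This was Hsp90b1, the form of the endoplasmic reticulum, at 5.75. Its summit is 315 bp outside the gene and 52 bp from an end of Ttc41. It lies on chromosome 10, which had a depth of 1.41 times the autosome median, and at an expected level raised accordingly it scored 4.21. Of the 15 genes of the HSP70 and HSP110 family, 0 scored at least 5, beside 3.60% of all protein-coding genes. A score of at least 3 was reached by 7 or 46.7%, beside 29.1%, with a highest score of 4.31 at Hspa5. The stress-inducible pair Hspa1a and Hspa1b, which are near-identical copies in which reads may be misplaced, both scored 3.02. Both are among the 7, as is Hspa1l at 3.02, which has an end within 1 kb of an end of Hspa1a. The 7 may thus hold fewer separate sites.

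Of the 44 J-domain genes, 2 or 4.55% scored at least 5 and 10 or 22.7% scored at least 3, with a median of 1.90. Over all protein-coding genes these shares were 3.60% and 29.1%. The genes at 5 or more were Dnajb1 and Dnajb5, another HSP40, at 7.31 and 171 bp outside its lower end. Of the 10 small heat shock proteins, 0 scored at least 5 and 1 or 10% scored at least 3, with a median of 1.90. These 2 lists had the lowest medians of the 9. Of the 6 genes around the heat shock factors, 0 scored at least 5 and 2 or 33.3% scored at least 3, with a median of 2.69. For both lists the shares of all protein-coding genes are again 3.60% and 29.1%. Hsf1, the main regulator of the heat shock response, scored 2.94.

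Of the 17 genes of chaperonins and prefoldin, 2 scored at least 5 and 8 scored at least 3, with a median of 2.60. These are 11.8% and 47.1% of the list, beside 3.60% and 29.1% of all protein-coding genes. Hspd1 and Hspe1, which share a summit, are both among the 8. Cct7, a subunit of the cytosolic chaperonin, scored 7.31 at 192 bp outside its lower end. Its called region spans 85451264 to 85451491 on chromosome 6, a length of 228 bp, and ranked 121 of 125 by score. The summit is also 674 bp from an end of Pradc1. Pfdn5, a prefoldin subunit, scored 6.51 at 364 bp outside its lower end. Apart from Cct7, none of the cytosolic chaperonin genes listed scored above 3.02.

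Of the 16 genes of folding and stress in the endoplasmic reticulum, 4 scored at least 5 and 9 scored at least 3. These are 25% and 56% of the list, beside 3.60% and 29.1% of all protein-coding genes. The median was 3.29, the highest of the 9 lists. Eif2ak3, which encodes the stress sensor PERK, scored 7.31 at 12 bp outside its lower end. Ddit3, which encodes the stress-induced factor CHOP, scored 5.75 at 549 bp outside its lower end and 625 bp from an end of Mbd6. It also lies on chromosome 10, and with the expected level raised to chromosome depth it scored 4.21. Atf6, another stress sensor, and Pdia4, a disulfide isomerase, were named after their values were seen and scored 5.61 and 5.01. The Atf6 summit was 948 bp inside the gene and 193 bp from an end of the long noncoding RNA gene Gm9929. Within 500 bp of its ends Atf6 scored 3.65. With the expected level raised to chromosome depth Pdia4 scored 4.84.

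**Figure D5:**
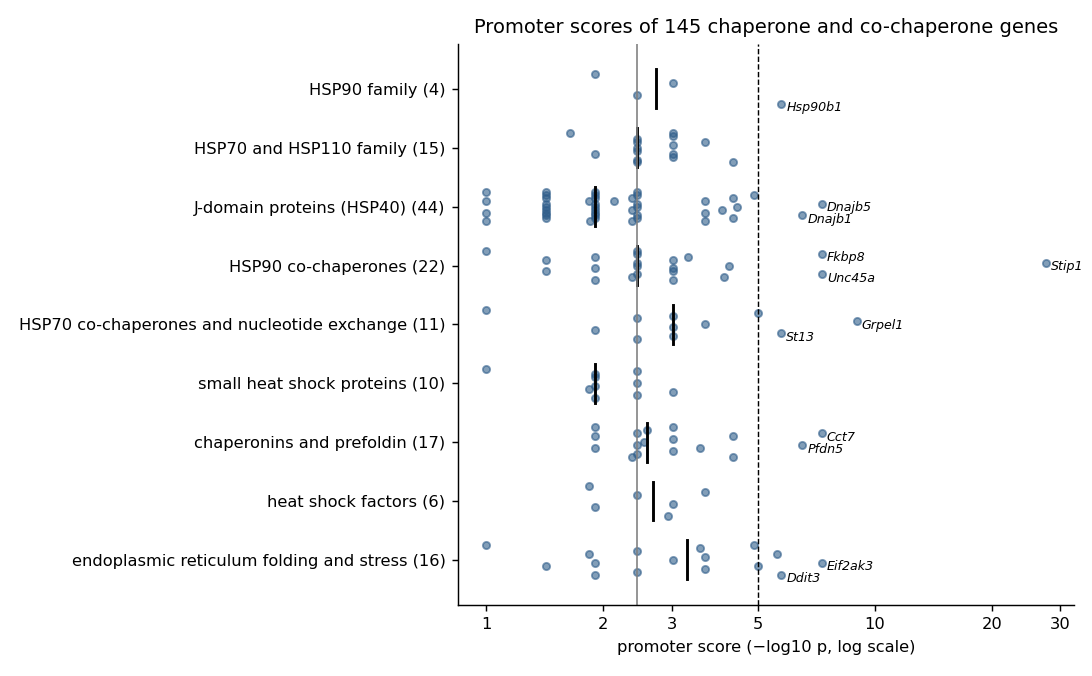
Promoter scores (horizontal axis, −log10 p, log scale) of the 145 genes, 1 point per gene, in the 9 lists with the number of genes in brackets. Points are spread vertically for legibility, black bars are list medians, the grey line is the median of all protein-coding genes, 2.44, and the dashed line a score of 5. Stip1 at 27.52 is followed by Grpel1 at 8.98, and the list medians lie between 1.90 and 3.29.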

How the data were processed

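TBX3 ChIP-Seq libraries (2 TBX3 ChIP and 2 Input) were mapped by the authors, whose processing notes name Bowtie2, SAMtools, MACS2 and mm10 (GRCm38). Versions, duplicate treatment and pooling are not given in the sources used here. The authors deposited 1 track of −log10 p-values, with 0 other columns that hold values per sample. Sequencing depth per library is unknown. The inferred total is 30128483 ChIP reads extended to 150 bp, on 21 main chromosomes. Genes came from RefSeq GRCm38.p6, without strand.

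Regions were at least 200 bp long, allowed gaps of 30 bp or less and had a score of at least 5 elsewhere. Reads and expected levels were inferred as the pairs that give each score under a Poisson distribution, with as few changes along the chromosome as possible. Levels were found at 98.2% of bases scoring 5 or more. Counting each read pair once divides pileup and expected level by 2 and assumes paired reads, which the sources used here do not state. Raising to chromosome depth lifts only expected levels under the genome-wide level times that depth. The inference, and both settings for the lists, were added after seeing the data. The inference, the region calls and the window maxima were tested on simulated data, and the other steps were not. Simulated sites with fewer added reads were called only in part, so weaker sites can lack a called region.

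The 10 genes, the lists and the settings were chosen with earlier results of these data known. The genes named are the 10 genes, protein-coding genes with an end within 1 kb of the Stip1 summit (0 besides Stip1), the 12 list genes with the highest promoter scores among those with a score of at least 5 or a called region, and E2f7 and E2f8. Other genes were named as neighbours of a summit or after their values were seen. Windows, cutoffs, gaps, lengths and gene sets were varied. Sequences and motifs were not analysed here. Scripts ran in Python 3.11.15 with scipy 1.17.1 and pandas 2.3.3 for tables, numpy 2.4.6 and numba 0.67.0 for the inference, and matplotlib 3.10.9 for plots.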

Additional observations from a re-analysis of the deposited data

How the results depend on the processing

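Most values kept their side of the cutoff. With each read pair counted once, which lowered the score of every list gene, the Dnajb1 score was 3.56. The list genes with a score of at least 5 were then 2 (Stip1 and Grpel1) in place of 15. With 20 kb outside the genes, the outside scores of Hspd1 and Hspe1 were both 5.75, a score of at least 5 being reached by 17.8% of protein-coding genes there. With a cutoff of 3, the genes with a called region were 2 (Stip1 and Dnajb1), beside 2.11% of protein-coding genes, and the list genes 56, beside 29.1%. The causes were not tested, except that a wider window or a lower cutoff can only add genes. A narrower window or a raised expected level can only lower a highest score. Scores already below 5 thus could not pass 5 in these settings, nor could scores above 5 drop with a wider window. Of 84 alternative values, the other 78 stayed on the same side of the cutoff or, for counts and shares, near the value reported. Many of these 78 could not have changed side, so their number does not measure stability. The 78 include list counts of 12, 13, 16 (mean score, 3.60% of protein-coding genes) and 18 (2 kb window, 5.19% of protein-coding genes) in place of 15. With the mean score Unc45a, Dnajb5, Pfdn5 and St13 were no longer counted, while Hspa2, Dnajb11, Dnajc10, Atf4 and Herpud1 were, so a like count does not mean the same genes. The share of genes as high as Stip1 was between 0.0260 and 0.0457%. No paired analysis was possible because the libraries have no separate values. For the same reason no replicate was left out. The setting with the 5′ end only and the motif settings were not run, since the gene table used here has no strand and no sequence was used. Depth limits the lower scores, where 10 reads score 4.31 and 11 reads score 5.01.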

Other observations

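Within 100 kb of the ends of Stip1 lie 16 other protein-coding genes, chosen for description after the data were examined. Their promoter scores were between 1.42 and 7.15, with a median of 2.73, and 5 of them scored at least 5, beside 3.60% of all protein-coding genes. The highest was Vegfb, a vascular growth factor gene, at 7.15, followed by Gpr137, Bad, Esrra and Catsperz at 5.01 each. A score of 5.01 is that of 11 reads at the genome-wide level, the lowest step above 5 there. Chromosome 19 had a depth of 1.19 times the autosome median, and these scores are without the expected level raised to that depth. Gpr137 and Bad overlap, and ends of Esrra and Catsperz lie within 1 kb of each other, so the 5 genes may hold fewer separate sites. Dnajc4, a J-domain gene of the lists, and Fkbp2, which is in none of the lists, lie in the same stretch and scored 2.44 each. None of the 16 genes came near the 27.52 of Stip1.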
